A study of Mus musculus with 2 samples.

Results

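The 9 genes described here are the acid-base genes by which intercalated cells (ICs) of the kidney are usually known, chosen by their symbols: Atp6v1b1, Atp6v0d2, Atp6v1g3, Atp6v0a4, Slc4a1, Slc26a4, Rhcg, Car2 and Foxi1. All 9 were found among the 32285 genes counted. Single-cell RNA sequencing had been done on postischemic kidneys of 9-week-old male C57BL/6 mice, 1 kidney sample from a mouse given saline (control) and 1 from a mouse given JPI-289, an inhibitor of poly(ADP-ribose) polymerase, at 100 mg/kg. Both mice underwent bilateral renal ischemia-reperfusion surgery with the injection into the peritoneal cavity just before reperfusion, and were sacrificed 24 h later. Each condition had a single library and hence no replicate, and every difference given here is between these 2 libraries, with intervals that cover counting error only. The question put to the data was how much of each gene was present in each class of kidney cells, and how the JPI-289 treated kidney differed from the control kidney.

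ICs lie among the principal cells (PCs) of the connecting tubule and the collecting duct. A-type ICs pump protons into the urine through a vacuolar ATPase (V-ATPase) in the apical membrane and return bicarbonate to the blood through the chloride-bicarbonate exchanger AE1, the product of Slc4a1. B-type ICs release bicarbonate into the urine through pendrin, the product of Slc26a4. The proton and the bicarbonate both come from carbonic anhydrase II, the product of Car2. Rhcg forms a channel for ammonia, by which acid is excreted as ammonium. Foxi1 is a forkhead transcription factor without which ICs do not form. The V-ATPase has a cytosolic part (V1) that burns ATP and a membrane part (V0) that passes protons. Atp6v1b1 and Atp6v1g3 encode V1 subunits, and Atp6v0d2 and Atp6v0a4 encode V0 subunits, that are restricted to few cell types, while other genes encode the forms of the same subunits that most cells use.

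Because Foxi1 binds promoters of V-ATPase subunit genes, the RefSeq promoters of the members were searched for the forkhead core, and the windows that hold it are shown. The word TGTTTAC was searched on both strands in the 250 bases before each start (GRCm38.p6). The word TGTTTGC was searched in the same way. The same was done for TGTTTAT and for TGTTTGT. At least 1 of these words was found in 15.7% of all 32851 promoters and in 2 of the 6 members with a promoter in the RefSeq table, Atp6v1g3 and Atp6v1b1. The window of Atp6v1g3 is chr1:138273641-138273707 on the plus strand and carries the word on the other strand, starting 67 bases before the transcript start. The window of Atp6v1b1 is chr6:83742889-83742955 on the plus strand, with the word starting 98 bases before the start. Each is printed 5′ to 3′ with the matched word in capitals. A match is only a description of these letters.
Atp6v1g3: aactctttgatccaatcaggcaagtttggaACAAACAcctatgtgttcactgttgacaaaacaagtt
Atp6v1b1: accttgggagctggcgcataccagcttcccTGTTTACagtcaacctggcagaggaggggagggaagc

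The control library held 38328760 unique molecular identifiers (UMIs, each 1 captured RNA molecule) and 3734 cells with a median of 2069 UMIs, and the JPI-289 library 35548396 UMIs and 5025 cells with a median of 1872. The 2 libraries shared 23 cell barcodes, where chance overlap gives 25.4. Cells were grouped by clustering without the 9 members, and clusters were named from lists of marker genes that hold no member. The class called IC-like had 34 control cells (0.911% of its cells, exact binomial 95% interval 0.631 to 1.27) and 57 JPI-289 cells (1.13%, 0.860 to 1.47). Its summed levels rest on 194051 control and 217917 JPI-289 UMIs. The class was not found in every grouping. With each library clustered alone, 0 control and 19 JPI-289 cells were IC-like, and with cells called by total UMIs alone only 2 JPI-289 cells were.

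The class was named by 12 other IC markers, so their levels describe it and are no separate check. Their summed level in IC-like cells was 2257 CPM (UMIs of the list or gene per 1000000 UMIs of the class) in control and 2033 in JPI-289 cells, against 41.3 and 30.7 in the remaining cells. Of these markers 12 were detected in control and 11 in JPI-289 cells, where Clnk was at 0. Markers of other cells were present too. The 9 PC markers summed to 1031 and 523 CPM, with Aqp4 at 0 in both libraries, and the 8 markers of the distal convoluted and connecting tubule (DCT/CNT) to 12481 and 6071, with Pvalb at 0 in both. In the remaining cells the PC markers were at 849 and 618 CPM and the DCT/CNT markers at 1382 and 1204. The DCT/CNT sum was thus higher in IC-like cells than in the rest, and above that of the IC markers. In IC-like cells both lists were higher in the control library, in the direction of most members described below, and their part in the results was not tested. The 7 neutrophil markers were at 0 in control and at 36.7 CPM in JPI-289 cells. The IC-like cells were mostly of B-type character in both libraries. The 4 B-type markers (Slc4a9, Insrr, Hmx2 and Spink8) gave 269 control and 380 JPI-289 UMIs, and the 4 A-type markers (Aqp6, Kit, Dmrt2 and Slc26a7) gave 69 and 26. Slc4a9 alone supplied 160 and 278 of the B-type UMIs, and Spink8 60 and 75. Spink8 was also among the 10 leading genes of some PC-like clusters, so it is not particular to B-type cells here. Hmx2, at 35 and 17, and Insrr, at 14 and 10, had fewer in the JPI-289 library. B-type markers therefore made up 79.6% (74.9 to 83.8) of these UMIs in control and 93.6% (90.8 to 95.8) in JPI-289 cells.

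The IC-like class was made of 3 clusters, which the libraries filled unequally. Cluster 1 held 3 control and 28 JPI-289 cells. Cluster 2 held 11 control and 20 JPI-289 cells, with 21.9% of its UMIs from the nuclear RNAs Malat1 and Neat1, against 1.65% in cluster 1 and 1.60% in cluster 3. Cluster 3 held 20 control and 9 JPI-289 cells, had the highest level of the PC and DCT/CNT markers, and its control cells were the deepest, with a median of 9208 UMIs. Most control IC-like cells thus came from cluster 3, while cluster 1 was the largest in the JPI-289 library. By UMIs, over which class levels are summed, the imbalance was larger. Cluster 3 held 168190 of the 194051 control UMIs, and cluster 1 held 157469 of the 217917 JPI-289 UMIs. For this reason the values within clusters stand beside the values over the class.

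Across the 12 classes with at least 20 cells in each library, 6 members had their highest level in IC-like cells of both libraries: Atp6v1b1, Atp6v0d2, Atp6v1g3, Atp6v0a4, Slc26a4 and Foxi1. Among these, the exact Poisson intervals of IC-like cells stayed clear of those of the next class in both libraries, except for Atp6v0a4 in the JPI-289 library, where the interval overlapped that of DCT/CNT-like cells. Slc4a1 was highest in IC-like cells of the control and in red blood cells (RBCs) of the JPI-289 library, Rhcg in PC-like cells of both, and Car2 in cells of the thick ascending limb (TAL) of the control and in IC-like cells of the JPI-289 library. For Slc4a1 and Car2 in both libraries and for Rhcg in the control, the interval overlapped that of the next class. IC-like cells held 79.9% and 78.9% of all Slc26a4 UMIs found in control and JPI-289 cells. For Car2 the shares were 2.31% and 4.36%.

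**Figure D1:**
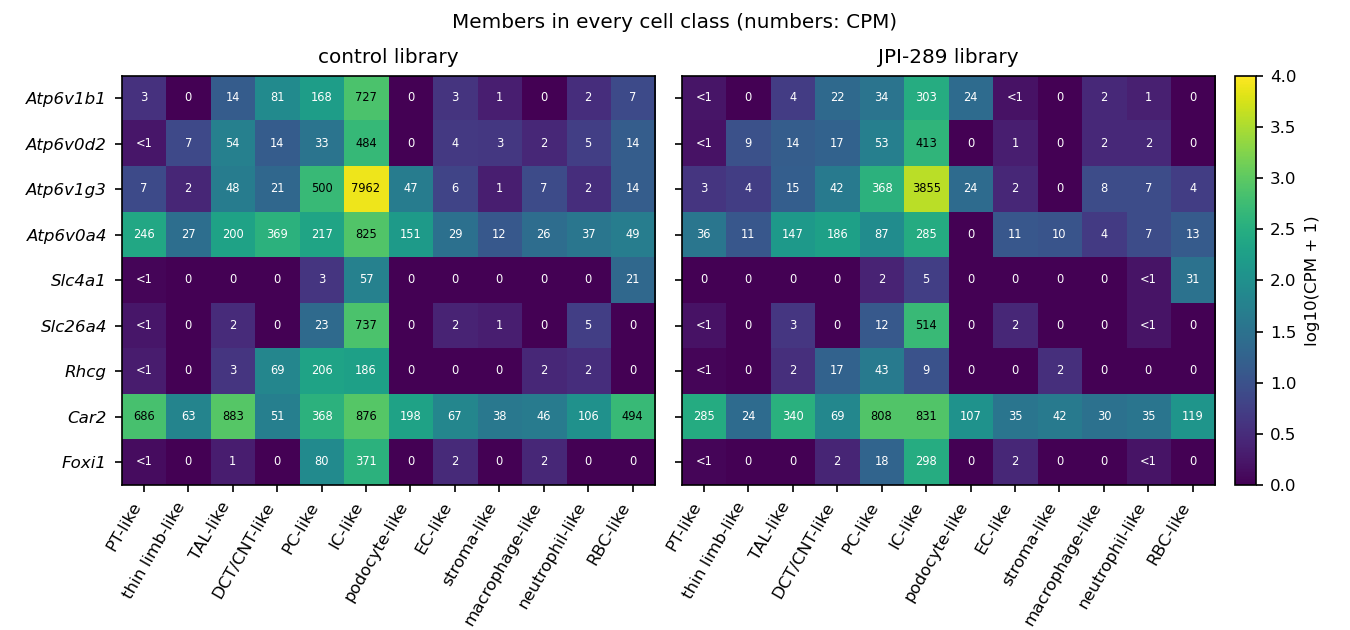
Level of each of the 9 members in 12 cell classes of the control (left) and JPI-289 (right) library, as CPM (number in each box) with colour on a log10 scale. Atp6v1g3 in IC-like cells is the highest value of both panels, at 7962 and 3855, and Atp6v0a4 and Car2 are spread over many classes.

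In IC-like cells the 9 members together made 2372 UMIs in control and 1419 in JPI-289 cells. These came to 12224 and 6512 CPM, JPI-289 being lower with a log2 ratio to the control of -0.91 (-1.004 to -0.81). Members were compared from 20 UMIs in a class, summed over both libraries, as were all other genes. Of the 8 that reached this, 4 were past 2-fold lower in the JPI-289 library (Atp6v1b1, Atp6v1g3, Atp6v0a4 and Rhcg) and 0 past 2-fold higher. Of all 3304 genes counted by the same rule, 8.84% were past 2-fold lower and 12.2% past 2-fold higher, and their median log2 ratio was 0.09 against -0.78 for the 8 members. With only cells of at least 1000 UMIs, 2 of the members were past 2-fold lower and 1 past 2-fold higher, but the share of all genes was not taken there. The direction of the sum depended on the clusters. Within cluster 3 the log2 ratio of the sum was 0.54, while in cluster 2 the sum stayed lower in the JPI-289 library. With the clusters weighted alike in both libraries, by their UMIs over both, the ratio was also 0.54. That value takes the control level of cluster 1 from 3 cells with 9100 UMIs, and the JPI-289 level of cluster 3 from 9 cells.

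**Figure D2:**
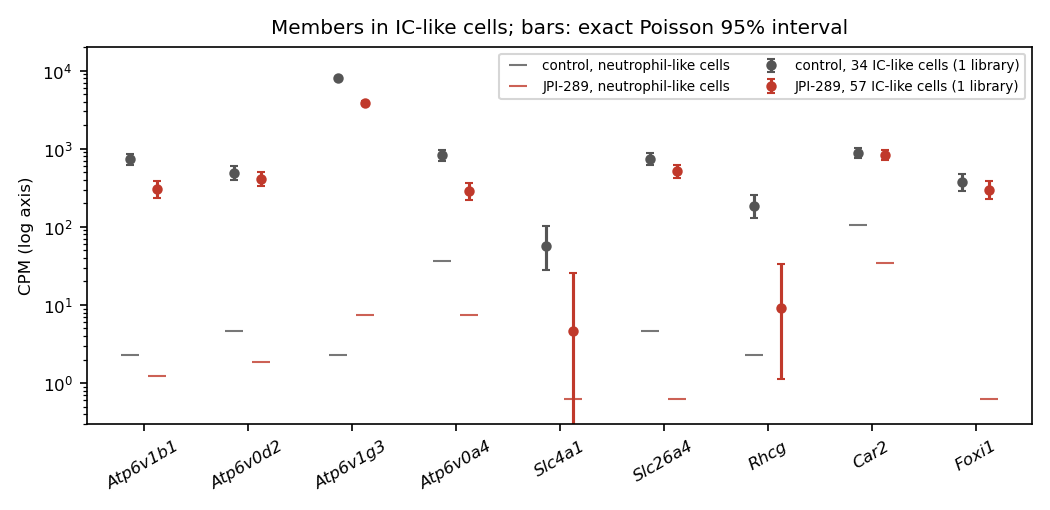
Level of each member in IC-like cells of the control (grey, 34 cells) and JPI-289 (red, 57 cells) library on a log axis of CPM, with exact Poisson 95% intervals; short dashes give the level in neutrophil-like cells where it is above 0, and a bar that meets the lower edge goes on below it. The points of Rhcg, at 186 and 9.18, lie farthest apart among members with at least 20 UMIs, while those of Car2, at 876 and 831, nearly coincide.

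Of the V1 subunits, Atp6v1g3 (chr1:138273738-138289462, plus strand), the restricted form of subunit G in the stalk of the pump, was the most abundant member. Its level in IC-like cells was 7962 CPM (7570 to 8369) in control and 3855 (3598 to 4124) in JPI-289 cells, from 1545 and 840 UMIs. The control level was higher and the intervals did not overlap, with a log2 ratio of -1.05 (-1.17 to -0.92). It had UMIs in 76.5% of control and 68.4% of JPI-289 IC-like cells, and in 78.6% and 65.3% after each cell was thinned to 1000 UMIs. In neutrophil-like cells, which should lack it, 0.510% and 1.84% of cells had a UMI. Few cells weighed heavily, since 1 control cell held 300 of the 1545 UMIs. Within cluster 3 a difference was not detectable at this depth, with 9049 and 10296 CPM and a log2 ratio of 0.19 (-0.02 to 0.38). In cluster 2 the levels were only 418 and 614 CPM, with a log2 ratio of 0.49 (-0.71 to 2.02). In cluster 1 it was 1.02 (0.36 to 1.88), from 16 and 580 UMIs, though with 3 control cells. The value over the class was thus below 0 and that of each cluster above 0.

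Atp6v1b1 (chr6:83742990-83758855, plus strand) encodes the restricted form of subunit B, which helps to form the sites that bind ATP. Its level was 727 CPM (612 to 857) in control and 303 (234 to 385) in JPI-289 IC-like cells, from 141 and 66 UMIs. The JPI-289 level was lower without overlap, with a log2 ratio of -1.26 (-1.71 to -0.83). Clusters went in opposite directions. The log2 ratio was -1.83 (-3.34 to -0.48) in cluster 2, from 13 and 8 UMIs, and 1.24 (0.68 to 1.74) in cluster 3, from 128 and 41 UMIs. With the clusters weighted alike in both libraries it was 0.98, where cluster 1 entered with 0 control UMIs from 3 cells. The direction over the class was thus not that of each cluster.

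Of the V0 subunits, Atp6v0a4 (chr6:38048483-38124586, minus strand), the restricted form of the large subunit a along which protons pass, was at 825 CPM (702 to 963) in control and 285 (218 to 365) in JPI-289 cells, from 160 and 62 UMIs. The log2 ratio was -1.53 (-1.98 to -1.10). Unlike Atp6v1b1, it was lower in the JPI-289 library both in cluster 2 (-1.24, -2.29 to -0.20) and in cluster 3 (-1.36, -2.79 to -0.37), although the latter rests on 7 JPI-289 UMIs. Free RNA, measured in barcodes under 100 UMIs, held 268 CPM of this gene in the control library and 32.0 in the other. With free RNA subtracted the log2 ratio in IC-like cells was -1.51.

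Atp6v0d2 (chr4:19876841-19922605, minus strand), the restricted form of subunit d, which joins the membrane part to the stalk, showed no such difference. Its level was 484 CPM (391 to 593) in control and 413 (332 to 508) in JPI-289 cells, from 94 and 90 UMIs. The intervals overlapped, and the log2 ratio of -0.23 (-0.66 to 0.20) leaves room for a change of either sign. It had UMIs in 58.8% of control and 56.1% of JPI-289 IC-like cells. Within cluster 3 it was higher in the JPI-289 library, with 84 and 24 UMIs and a log2 ratio of 1.08 (0.34 to 1.73).

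**Figure D3:**
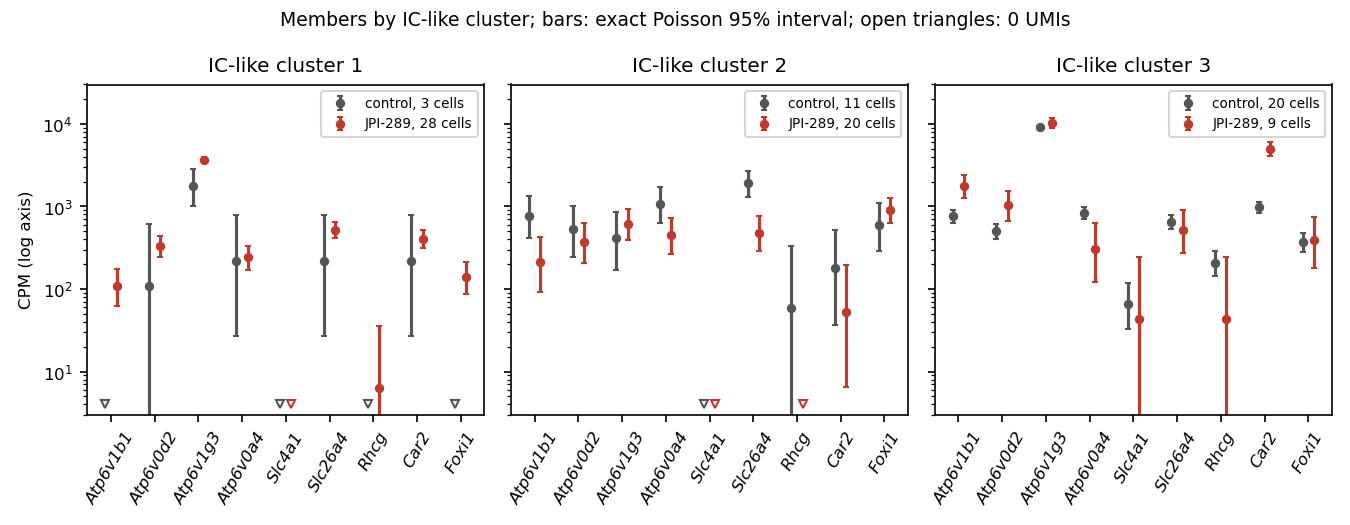
Levels of the members in the 3 IC-like clusters, control in grey and JPI-289 in red, on a log axis of CPM with exact Poisson 95% intervals; open triangles mark 0 UMIs, and a bar that meets the lower edge goes on below it. In cluster 3 the red points of Atp6v1b1, Atp6v0d2 and Car2 lie above the grey ones and those of Atp6v0a4 and Rhcg below, and cluster 1 has only 3 control cells.

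Comparing each restricted subunit with the form that most cells use removes the total from the comparison, but not the unequal filling of the clusters. Shares were not taken within clusters, and the part of the clusters was not tested. In IC-like cells Atp6v1b1 made 82.9% (76.4 to 88.3) of subunit B UMIs in control and 45.2% (37.0 to 53.6) in JPI-289 cells. Its counterpart Atp6v1b2 was at 29 and 80 UMIs, a log2 ratio of 1.28 (0.67 to 1.96). Lower Atp6v1b1 and higher Atp6v1b2 thus both entered the share. Atp6v0a4 made 87.9% (82.3 to 92.3) and 77.5% (66.8 to 86.1) of the UMIs of Atp6v0a4, Atp6v0a1 and Atp6v0a2, with overlapping intervals. With the remaining form Tcirg1 counted, which was added after values had been seen, the shares were 87.4% (81.7 to 91.9) and 72.1% (61.4 to 81.2). These intervals narrowly missed each other, on 1 control and 6 JPI-289 UMIs of Tcirg1, whose own log2 ratio had an interval of -0.63 to 7.94. Atp6v1g3 made 96.1% (95.01 to 97.0) and 91.2% (89.2 to 93.0) of subunit G UMIs. For subunit d the share of Atp6v0d2 was nearly the same, at 77.0% (68.6 to 84.2) and 76.9% (68.2 to 84.2).

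**Figure D4:**
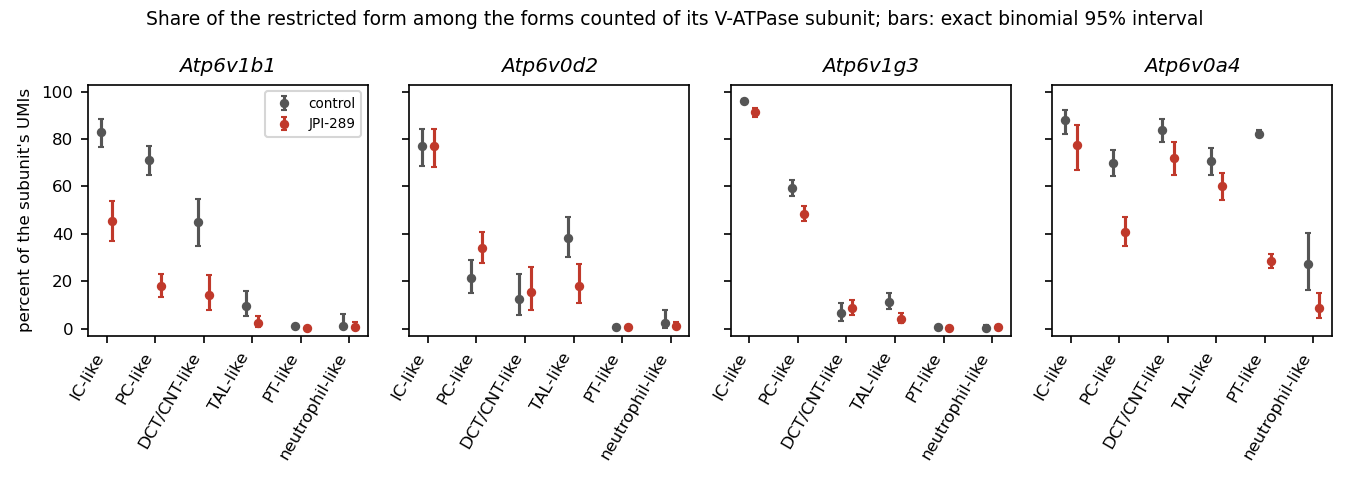
Share of UMIs of V-ATPase subunits B, d, G and a that came from the restricted form named above each panel (Tcirg1 not counted for subunit a), in percent with exact binomial 95% intervals, in 6 cell classes, control in grey and JPI-289 in red. The share of Atp6v1b1 in PC-like cells (71.2% and 17.8%) and of Atp6v0a4 in PT-like cells (82.3% and 28.4%) lie far apart between the libraries.

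Of the anion exchangers, Slc26a4 (chr12:31519827-31559969, minus strand), the pendrin gene, was much the more abundant in IC-like cells. Its level was 737 CPM (621 to 868) in control and 514 (423 to 618) in JPI-289 cells, from 143 and 112 UMIs, with a log2 ratio of -0.52 (-0.89 to -0.15). In cluster 2 the log2 ratio was -1.97 (-2.91 to -1.11), and in cluster 3 it was -0.26 (-1.31 to 0.55). Slc4a1 (chr11:102348824-102366203, minus strand), the AE1 gene, had 11 UMIs in control and 1 in JPI-289 cells, or 56.7 (28.3 to 101) and 4.59 (0.116 to 25.6) CPM. The log2 ratio was -3.11 (-9.05 to -0.84), and the gene was under the minimum of 20 UMIs. All 11 control UMIs came from cluster 3.

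The exchangers were not seen together in any IC-like cell. Slc26a4 had UMIs in 17 of 34 control and 17 of 57 JPI-289 cells, Slc4a1 in 4 and 1, and 0 cells had both. With so few Slc4a1 cells, this does not show that A- and B-type cells were separate. A-type markers were seen with B-type markers in 9 control and 10 JPI-289 cells, and without them in 0 and 1. Pendrin made 92.9% (87.6 to 96.4) and 99.1% (95.2 to 100.0) of the exchangers' UMIs. After thinning to 1000 UMIs, Slc26a4 had UMIs in 28.6% of control and 24.5% of JPI-289 IC-like cells, against 0% and 0.172% of neutrophil-like cells. Pendrin thus made most of the exchangers' UMIs in both libraries, as B-type markers did of the marker UMIs. The intervals of the pendrin shares overlapped between the libraries.

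Rhcg (chr7:79593363-79617657, minus strand), the ammonia channel, had the widest difference among members with at least 20 UMIs. IC-like cells held 36 control and 2 JPI-289 UMIs, or 186 (130 to 257) and 9.18 (1.11 to 33.2) CPM, with a log2 ratio of -4.04 (-7.44 to -2.38). UMIs were seen in 12 of 34 control and 2 of 57 JPI-289 cells. Of the control UMIs 35 lay in cluster 3, where the JPI-289 library had 1 UMI and the log2 ratio was -1.70 (-7.60 to 0.31). That value rests on 20 control and 9 JPI-289 cells.

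Car2 (chr3:14886273-14900770, plus strand), carbonic anhydrase II, was at 876 CPM (749 to 1018) in control and 831 (714 to 961) in JPI-289 cells, from 170 and 181 UMIs. The intervals overlapped, with a log2 ratio of -0.08 (-0.39 to 0.23). Beneath this near-equality, cluster 3 held 981 CPM in control and 4996 in JPI-289 cells, a log2 ratio of 2.35 (1.99 to 2.70), and clusters 1 and 2 held 406 and 53.4 in the JPI-289 library. Free RNA carried 540 and 224 CPM of Car2, and the JPI-289 level in cluster 2 lay under that.

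Foxi1 (chr11:34204338-34208089, minus strand), the transcription factor, was at 371 CPM (290 to 467) in control and 298 (230 to 380) in JPI-289 cells, from 72 and 65 UMIs. The intervals overlapped, with a log2 ratio of -0.31 (-0.82 to 0.19). It was found in 13 of 34 control and 25 of 57 JPI-289 IC-like cells, and in 28.6% and 26.5% after thinning. Its log2 ratio was 0.56 (-0.44 to 1.79) in cluster 2 and 0.15 (-1.11 to 1.10) in cluster 3. No direction was thus detectable for Foxi1 at this depth.

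The wider list of acid-base genes held 58 other genes, of which 33 had at least 20 UMIs in IC-like cells. They were compared over the class and not within its clusters, and the part of the unequal clusters was not tested. Past 2-fold lower in the JPI-289 library were 10 and past 2-fold higher was 1, against the 8.84% and 12.2% of all genes given above, and the median log2 ratio was -0.40. The genes of the most common V-ATPase subunits showed little of this. Of the 8 such V1 genes with enough UMIs 1 (Atp6v1b2) was past 2-fold higher, and of the 7 such V0 and accessory genes 1 (Atp6v0e) was past 2-fold lower. Atp6v0c, which encodes the proton-carrying ring subunit, was at 411 and 589 UMIs with a log2 ratio of 0.35 (0.17 to 0.54). Atp6v1a, which encodes the subunit that splits ATP, was at 188 and 143 UMIs, -0.56 (-0.89 to -0.24). Atp6v0e, a small membrane subunit, was at 192 and 106 UMIs, -1.02 (-1.38 to -0.67). Atp6v1f and Atp6v1e1 had ratios of -0.21 (-0.49 to 0.07) and 0.05 (-0.29 to 0.39), both with intervals over 0.

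Of the 4 ammonia-handling genes with enough UMIs, 2 were past 2-fold lower, against 8.84% of all genes in IC-like cells. Rhbg, the basolateral ammonia transporter of the same family as Rhcg, was at 63 and 6 UMIs with a log2 ratio of -3.46 (-5.06 to -2.36). Pck1, an enzyme of gluconeogenesis in proximal tubules (PTs), was at 48 and 8 UMIs, -2.68 (-4.04 to -1.66), in cells where the 10 PT markers summed to 423 and 317 CPM. Glud1, glutamate dehydrogenase, was at 32 and 43 UMIs, 0.25 (-0.43 to 0.97). Over the class, the ammonia transporters of both cell faces were thus lower in the JPI-289 library, with the part of the unequal clusters not tested.

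Of the 7 regulator and receptor genes with enough UMIs, 6 were past 2-fold lower, against 8.84% of all genes in IC-like cells. The median log2 ratio of the 7 was -1.50. Tfcp2l1, a transcription factor of the collecting duct, was at 231 and 90 UMIs, -1.52 (-1.90 to -1.17). Ncoa7, a protein that binds the V-ATPase, was at 37 and 4 UMIs, -3.23 (-5.33 to -1.90). Oxgr1, the receptor for 2-oxoglutarate, was at 27 and 5 UMIs, -2.49 (-4.33 to -1.20). The A-type gene Kit was at 31 and 12 UMIs, -1.50 (-2.63 to -0.53). Hmx2, a homeobox factor and a B-type marker, was at 35 and 17 UMIs, -1.19 (-2.14 to -0.33). Kit, Hmx2, Oxgr1, Aqp6 and Insrr, all among these 7, are also IC markers that named the class.

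Among transporters and carbonic anhydrases the B-type exchanger Slc4a9 went the other way, at 160 and 278 UMIs and a log2 ratio of 0.63 (0.34 to 0.92). It is also an IC marker. Clcn5, which encodes a chloride-proton exchanger, was at 60 and 51 UMIs, -0.40 (-0.97 to 0.16). Car15, a membrane-bound carbonic anhydrase, was at 258 and 132 UMIs, -1.13 (-1.45 to -0.83). Car12, another one, was at 44 and 60 UMIs, 0.28 (-0.31 to 0.88). Of the restricted V-ATPase subunits outside the members only Atp6v1c2 was measured well enough, at 37 and 49 UMIs, 0.23 (-0.41 to 0.89).

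PC-like cells, the neighbours of ICs, also held the members. The class had 67 control cells with a median of 10209 UMIs and 398 JPI-289 cells with a median of 1505. Of the JPI-289 cells 320 lay in shallow clusters with only 5 control cells, in which neutrophil markers summed to 1532 CPM. Of the 8 members with at least 20 UMIs, 4 were past 2-fold lower in the JPI-289 library and 1 past 2-fold higher, against 13.5% and 9.03% of 8272 genes. Results are therefore given over the class, over the deep clusters, whose median was at least 3000 UMIs (62 control and 78 JPI-289 cells), and over the clusters with cells of both libraries (13 and 178 cells). The deep clusters were not the same ones in both libraries. Of their control cells 25, 22 and 7 lay in clusters with 0 JPI-289 cells, and their JPI-289 cells lay in a pair of clusters with 5 and 3 control cells. The cluster of 22 control cells had DCT/CNT markers at 15203 CPM, above its PC markers at 9742. It held most control UMIs of Atp6v1g3, Atp6v1b1, Atp6v0a4, Rhcg, Atp6v0d2 and Slc26a4 in PC-like cells, but not of Car2 and Foxi1. Values without this cluster alone were not taken, and its part was not tested. Markers of DCT/CNT summed to 4719 CPM in control and 2602 in JPI-289 cells of the deep clusters, and their part in these values was not tested.

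Rhcg in PC-like cells was at 206 CPM (179 to 237) in control and 43.4 (32.9 to 56.3) in JPI-289 cells, from 198 and 57 UMIs, a log2 ratio of -2.24 (-2.70 to -1.82). In the deep clusters it was -1.79 (-2.27 to -1.35), and in clusters with cells of both libraries -1.57 (-2.53 to -0.30). Atp6v1b1 was at 168 and 33.5 CPM, -2.31 (-2.84 to -1.84), at -3.21 (-4.12 to -2.49) in the deep clusters and at -3.22 (-4.33 to -1.99) in clusters of both libraries. Atp6v0a4 was at 217 and 86.9, -1.32 (-1.66 to -0.98), at -1.14 (-1.53 to -0.78) in the deep clusters and at -1.08 (-1.93 to 0.03) in clusters of both libraries, where the interval held 0. Its control level over the class lay under that of free RNA, at 268 CPM. Foxi1 was at 80.3 and 18.3, -2.11 (-2.86 to -1.46), at -3.22 (-4.67 to -2.19) in the deep clusters and at -4.62 (-5.96 to -3.39) in clusters of both libraries. The last view rests on 9 to 15 control UMIs of each of these genes. All 15 control UMIs of Foxi1 in it came from 2 cells, which the counting interval does not take into account. In the deep clusters, which include these cells, a further 36 of the 77 control UMIs of Foxi1 came from 5 cells. The JPI-289 level of Foxi1 was near that of free RNA, at 17.5 CPM, over the class and under it in the deep clusters, at 8.17. Foxi1 is a gene of ICs, and IC markers were present in every PC-like cluster, at 89.6 to 579 CPM, and their part in these values was not tested. These markers include Spink8, which was itself among the 10 leading genes of some PC-like clusters.

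Car2 differed from the others in PC-like cells, at 368 CPM (331 to 409) in control and 808 (760 to 858) in JPI-289 cells, from 353 and 1060 UMIs. The log2 ratio was 1.13 (0.96 to 1.31), 1.05 (0.86 to 1.24) in the deep clusters and 1.24 (0.63 to 2.02) in clusters of both libraries. It was the only member past 2-fold higher there. Car2 had UMIs in 27.0% of control and 54.3% of JPI-289 PC-like cells after thinning, where the unthinned shares were 77.6% and 71.4%, against 7.91% and 3.61% of thinned neutrophil-like cells. Free RNA of Car2 was lower in the JPI-289 library, at 540 and 224 CPM, opposite to the difference in PC-like cells. The control level in PC-like cells lay under that of free RNA and the JPI-289 level above it.

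Atp6v1g3 in PC-like cells was at 500 and 368 CPM, a log2 ratio of -0.44 (-0.63 to -0.26), and -1.09 (-1.34 to -0.86) in the deep clusters. The deep cluster of 22 control cells held 1376 CPM. Control levels in the other deep clusters ranged from 0 to 1047, with 66.7 in the cluster of 25 control cells. The JPI-289 level over the deep clusters was 236. In clusters with cells of both libraries, which leave out the cluster of 22, the log2 ratio was -1.69 (-2.12 to -1.21). That value rests on 13 control cells. The shallow JPI-289 clusters held 617 CPM. Atp6v0d2 was at 32 and 69 UMIs, with a log2 ratio of 0.64 (0.03 to 1.31) that turned to -0.38 (-1.24 to 0.44) in the deep clusters. Slc26a4 was at 22 and 16 UMIs, -0.90 (-1.94 to 0.08). Its levels of 22.9 and 12.2 CPM lay under those of free RNA, at 24.9 and 14.5. The Atp6v1b1 share of subunit B was 71.2% (64.9 to 77.0) in control and 17.8% (13.3 to 23.2) in JPI-289 cells, with Atp6v1b2 at 65 and 203 UMIs.

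**Figure D5:**
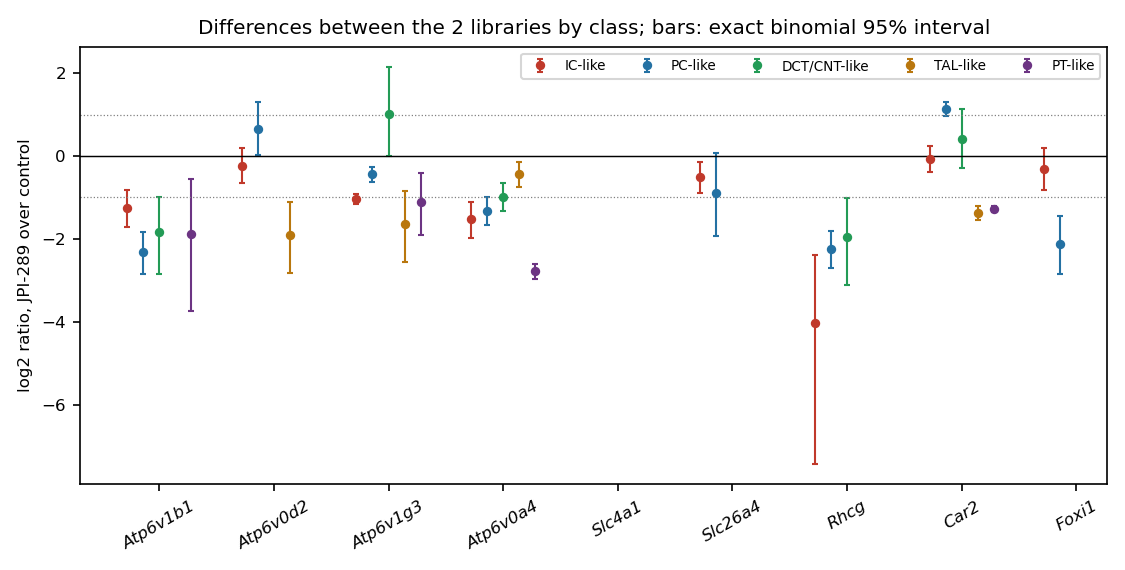
Log2 ratio of JPI-289 over control for each member compared (20 or more UMIs in the class), in IC-, PC-, DCT/CNT-, TAL- and PT-like cells, with exact binomial 95% intervals for counting error; dotted lines mark 2-fold. Most points lie below 0, and Car2 in PC-like cells (1.13) lies farthest above it; Slc4a1 had too few UMIs to be drawn.

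In DCT/CNT-like cells, with 176 control and 212 JPI-289 cells, 5 members had enough UMIs, of which 2 were past 2-fold lower and 1 past 2-fold higher, against 12.5% and 8.15% of 6304 genes. Atp6v0a4 was at 369 CPM (321 to 422) in control and 186 (154 to 223) in JPI-289 cells, a log2 ratio of -0.98 (-1.32 to -0.66). Atp6v1b1 was at 47 and 14 UMIs, -1.85 (-2.86 to -0.99), and Rhcg at 40 and 11 UMIs, -1.95 (-3.11 to -1.01). Atp6v1g3 went the other way, at 12 and 27 UMIs and 1.00 (0.01 to 2.15). Its levels of 20.6 and 42.2 CPM lay under those of free RNA, at 93.0 and 43.6. Car2 was at 30 and 44 UMIs, 0.41 (-0.28 to 1.14), and its levels lay under those of free RNA too, at 540 and 224 CPM. The DCT/CNT-like clusters were filled unequally. The largest held 126 control and 99 JPI-289 cells, and the others 8 and 56, 5 and 55, and 37 and 2. Values were not taken within these clusters, and their part was not tested.

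In TAL-like cells, with 349 control and 388 JPI-289 cells, 3 of the 4 members with enough UMIs were past 2-fold lower and 0 higher, against 11.8% and 7.47% of 7909 genes. Car2 was at 883 CPM (824 to 945) in control and 340 (307 to 374) in JPI-289 cells, a log2 ratio of -1.38 (-1.55 to -1.21). Atp6v0d2 was at 51 and 17 UMIs, -1.91 (-2.82 to -1.12), and Atp6v1g3 at 45 and 18 UMIs, -1.65 (-2.55 to -0.86). Atp6v0a4 was at 200 and 147 CPM, -0.45 (-0.75 to -0.14). The estimated share of free RNA in these cells was 14.4% in control and 3.18% in JPI-289 cells, and with free RNA subtracted the ratios were -1.46 for Car2, -2.11 for Atp6v0d2, -1.51 for Atp6v1g3 and -0.33 for Atp6v0a4. Before subtraction the Atp6v1g3 levels, 47.6 and 14.9 CPM, lay under those of free RNA, at 93.0 and 43.6. The control level of Atp6v0a4 lay under that of free RNA as well, at 268 CPM. The libraries filled the 3 largest TAL-like clusters unequally, with 198 control and 27 JPI-289 cells in the first, 59 and 159 in the second and 72 and 130 in the third. Within them the log2 ratio of Car2 was -1.12 (-1.53 to -0.75), -1.01 (-1.54 to -0.47) and -1.41 (-1.64 to -1.18). That of Atp6v0a4 was -1.03 (-2.33 to 0.0047), -0.96 (-1.99 to 0.11) and -0.30 (-0.67 to 0.06), and each interval held 0. Atp6v1g3 had 40 and 7 UMIs in the first (-1.60, -3.09 to -0.51). It had 0 and 4 in the second and 5 and 4 in the third. Atp6v0d2 had 22 and 0 UMIs in the first and 1 and 1 in the second. In the third it had 24 and 14 (-1.13, -2.21 to -0.14).

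PT-like cells, with 1776 control and 1640 JPI-289 cells, held most of the Car2 and Atp6v0a4 UMIs found in control cells. Carbonic anhydrase II serves the recovery of filtered bicarbonate in PTs. Car2 was at 686 CPM (668 to 704) in control and 285 (273 to 297) in JPI-289 cells, from 5555 and 2088 UMIs, a log2 ratio of -1.27 (-1.34 to -1.20). It had UMIs in 49.5% and 26.5% of cells after thinning, and in 71.6% and 47.6% before. Atp6v0a4 was at 246 CPM (236 to 257) and 35.7 (31.5 to 40.3), from 1995 and 262 UMIs, -2.78 (-2.98 to -2.60). The libraries filled almost separate PT-like clusters. The 7 clusters held 21 control and 784 JPI-289 cells, 783 and 6, 580 and 1, 4 and 433, 4 and 407, 224 and 0, and 160 and 9, so the values compare different clusters. In the first, the only one with at least 20 cells of each library, Car2 was at 14 and 482 UMIs with a log2 ratio of -0.73 (-1.44 to 0.20), and Atp6v0a4 had 1 control UMI. A difference within that cluster was not detectable at this depth, and within the others it could not be compared. Over the class all 4 members with enough UMIs were past 2-fold lower, in a class where 23.5% of 11306 genes were lower by this rule and 9.1% higher. Among the 4 were Atp6v1b1, at 2.72 and 0.682 CPM, and Atp6v1g3, at 6.91 and 3.14 CPM. These levels lay under those of free RNA, at 38.5 and 8.73 for Atp6v1b1 and 93.0 and 43.6 for Atp6v1g3. The control level of Atp6v0a4, 246 CPM, also lay under that of free RNA, at 268.

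The other forms of subunit a went different ways in PT-like cells. Atp6v0a1 was at 224 and 406 UMIs, a log2 ratio of 1.00 (0.76 to 1.24), and Atp6v0a2 at 205 and 253 UMIs, 0.45 (0.18 to 0.72). Tcirg1, the remaining form, was added after values had been seen and was at 54 and 22 UMIs, -1.13 (-1.94 to -0.41). The share of Atp6v0a4 among UMIs of Atp6v0a4, Atp6v0a1 and Atp6v0a2 was 82.3% (80.7 to 83.8) in control and 28.4% (25.6 to 31.5) in JPI-289 cells. Atp6v1b2, the subunit B form of PTs, was at 286 and 345 CPM, 0.27 (0.19 to 0.35). With Tcirg1 counted the share was 80.5% and 27.8%. Atp6v0a4 and Tcirg1 were thus lower in the JPI-289 library and the other two higher.

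In cells that should not make these genes, the levels were low. In endothelial cells (ECs) Car2 was at 67.1 and 34.9 CPM and Atp6v0a4 at 29.5 and 11.0, and in neutrophil-like cells they were at 106 and 34.7 and at 36.8 and 7.43. Both genes were thus lower in the JPI-289 library there, as in free RNA, where Car2 was at 540 and 224 and Atp6v0a4 at 268 and 32.0. In RBC-like cells, which carry AE1 as band 3, Slc4a1 had 3 control and 7 JPI-289 UMIs, or 21.2 (4.36 to 61.8) and 30.9 (12.4 to 63.6) CPM.

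Over all barcodes of each library, which needs no cell calling, each of the 9 members had a log2 ratio below 0. The share of all genes below 0 was not taken for this total, so the count does not set the members apart. It was -1.94 (-2.02 to -1.87) for Atp6v0a4, -1.89 (-2.18 to -1.61) for Rhcg, -1.83 (-2.04 to -1.63) for Atp6v1b1 and -1.12 (-1.16 to -1.08) for Car2. It was -0.54 (-0.61 to -0.46) for Atp6v1g3, -0.48 (-0.75 to -0.22) for Foxi1 and -0.87 (-1.79 to -0.04) for Slc4a1. For Atp6v0d2 and Slc26a4, both at -0.12, the intervals held 0. In such a total, fewer cells of a type and less RNA per cell cannot be told apart.

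The genes with profiles most like those of the members were sought over 24 profiles, 12 classes in 2 libraries, among 12923 genes. The profiles share library and depth, so Pearson's r of log2(CPM + 1) is a description across profiles. Slc26a4 was nearest to Gm47795 (r = 0.95), and Foxi1 (r = 0.95) and Atp6v1g3 (r = 0.92) to 2610016A17Rik. Atp6v1b1 was nearest to Spink8 (r = 0.89), and Atp6v0d2 to Ckmt1 (r = 0.92). Spink8 is on the list of IC markers, but only 60 control and 75 JPI-289 of its 748 UMIs lay in IC-like cells. It was also among the 10 leading genes of some PC-like clusters. Among the members, Foxi1 and Slc26a4 were close (r = 0.93). Rhcg was nearest to Scnn1g (r = 0.92) and Scnn1b (r = 0.92), which encode subunits of the epithelial sodium channel of PCs. Atp6v0a4 was nearest to Wnk4 (r = 0.88), a kinase of the distal nephron. Car2 had no close match, with Aldh1l1 at r = 0.74. The members thus fell between a profile centred on IC-like cells, one on PC-like cells for Rhcg, and the broad profiles of Atp6v0a4 and Car2. In the control library the Rhcg interval of PC-like cells overlapped that of IC-like cells.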

How the data were processed

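Raw UMI counts, with 1 row for each gene and barcode that had any, were deposited by the authors for 2 libraries (10x Genomics Chromium 5′ chemistry), made with Cell Ranger 5.0.1 on mm10 according to the submitters' processing notes. No normalized values were used. Cells were called by total UMIs and then, from 500 UMIs, against empty droplets (ranks 45000 to 90000, 10000 simulations, false discovery rate 0.01). Cells over 50% mitochondrial UMIs were left out (540 control, 396 JPI-289). After scaling to 10000 UMIs and a log transform, clustering used 2000 variable genes without the members and the wider list, 30 components, 20 neighbours and Leiden resolution 1 (scanpy 1.11.5, leidenalg 0.10.2). Tubule clusters of the distal nephron and duct were clustered again. The last step took 15 components and 10 neighbours at 3 times the resolution, set after marker sums had been seen. A doublet caller marked 8 of 8759 cells and so did not work. Doublets therefore remain, apart from the alternative that left out the 5% of cells with the highest scores. Names came from marker lists, and unnamed clusters held 158 control and 508 JPI-289 cells.

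UMIs were summed per class and library and divided by the class total and scaled to 1000000 (CPM). 5′ UMIs count 1 end per molecule, so levels were not divided by length. Ratios had 0.5 UMIs added. Intervals were 95%, exact Poisson for levels and exact binomial for shares and for ratios of 2 counts. They cover counting error only, and for a count of 0 the Poisson interval reaches past 3 UMIs. Genes were compared from 20 UMIs in a class. Free RNA was read from barcodes under 100 UMIs. No test between conditions was possible with 1 library each. Steps were tested on simulated data. The members and lists were chosen with earlier results of these data known. Named beside the members are, per group of the wider list, the 3 genes with most UMIs and the 2 that differed most in each direction, and the 3 nearest profiles, of which some are left unprinted, and 1 gene of the wider list is not reported here. Positions are from GENCODE vM21 on GRCm38.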

Additional observations from a re-analysis of the deposited data

Results flagged for a closer look

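The effects in these results differ in direction between classes or clusters, and the differences themselves were not tested, since each group had 1 library. The log2 ratio of Atp6v0d2 was 0.64 in PC-like and -1.91 in TAL-like cells, 2.55 apart, and the value in PC-like cells turned in the deep clusters. That of Atp6v1g3 was 1.00 in DCT/CNT-like and -1.05 in IC-like cells, 2.05 apart, with the levels in DCT/CNT-like cells under those of free RNA. That of Car2 was 1.13 in PC-like and -1.27 in PT-like cells, 2.40 apart, and Car2 was below 0 in 6 classes and above 0 in 1. Within IC-like cells, the log2 ratio of Atp6v1b1 was 3.07 higher in cluster 3 than in cluster 2.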

How the results depend on the processing

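No paired analysis was possible because each group had 1 library. In IC-like cells Rhcg was lower in the JPI-289 library under 17 of 17 alternatives (-5.10 to -1.63), as was Slc4a1 (-3.74 to -0.069) except in cluster 2 alone, where it had 0 UMIs in both libraries, and Atp6v0a4 under 16 of 17, while Atp6v1g3 kept its direction in 14, Atp6v1b1 in 12 and the sum of members in 15. The class held 2 JPI-289 UMIs of Rhcg and 1 of Slc4a1, so alternatives that share these cells are no separate checks. Rhcg had 1 and 0 UMIs in cluster 2 alone, and in cluster 3 alone its interval held 0. The IC-like share of JPI-289 cells was 0.105% with calling by total UMIs alone, 0.787% from 1000 UMIs, 0.704% with at most 20% mitochondrial UMIs, 0.730% without the highest doublet scores and 0.856% at resolution 0.5. With each library clustered alone it was 0.378% (control 0%, so no ratio could be had). With cells taken by at least 2 IC markers the control share was 1.37%. The summed log2 ratio was -0.80 by total UMIs alone, -0.45 from 1000 UMIs, -0.67 with the mitochondrial limit, -0.62 without high doublet scores, -0.53 at resolution 0.5, -0.81 with members among the clustering genes, -0.64 by 2 markers, -0.59 with equal weight per cell and -0.77 without the top cell of each library. Of the 8 members compared, 4 were past 2-fold lower, and 2 were from 1000 UMIs, without high doublet scores, at resolution 0.5, with members among the clustering genes, in cluster 3, without cluster 1 and with clusters weighted alike. Past 2-fold higher were 0, but 1 from 1000 UMIs, 3 in cluster 3, 1 without cluster 1 and 1 with clusters weighted alike. The share of all genes past 2-fold was taken only in the main setting, so the counts under the alternatives do not set the members apart.

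Reversed were, by total UMIs alone, Atp6v1b1 (0.23), Atp6v0a4 (0.084) and Slc26a4 (0.93), from 1000 UMIs Atp6v1b1 (0.016), and with members among the clustering genes Slc26a4 (0.10). The alternatives by cluster were chosen after seeing the data. In cluster 3 alone the sum (0.54), Atp6v1b1 (1.24) and Atp6v1g3 (0.19) reversed, and in cluster 2 alone Atp6v1g3 (0.49). Without cluster 1 Atp6v1b1 was 0.10 and the sum -0.45. With clusters weighted alike the sum (0.54), Atp6v1b1 (0.98) and Atp6v1g3 (0.35) reversed. With free RNA subtracted Atp6v0a4 in ECs (4.45), Car2 in ECs (0.20) and Atp6v0a4 in neutrophil-like cells (1.77) reversed, but the subtraction took the control levels there to 0, so these are no measured changes. In PC-like cells Atp6v0d2 reversed in the deep clusters (-0.38) and in clusters with cells of both libraries (-1.08), and after thinning 5 members in place of 8 had UMIs in a smaller share of JPI-289 cells. With a minimum of 100 UMIs, 18 genes of the wider list in place of 33 were compared and 3 in place of 10 were past 2-fold lower. With a minimum of 5 UMIs these numbered 16, and 2 in place of 1 were past 2-fold higher. The shares of all genes at these minimums were not taken, so these counts do not set the list apart. Causes were not tested, beyond the smaller number of cells or genes that an alternative leaves.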

Other observations

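Cells of the unnamed clusters, 158 control and 508 JPI-289 cells, were a mixture that differed between the libraries, with 17 and 251 cells in the largest cluster, 69 and 131 in the next and 35 and 45 in the third. The estimated share of free RNA in them was 41.7% and 25.7%. Its part and that of the mixture in the values below were not tested. The 9 members summed to 92.3 CPM in control and 182 in JPI-289 cells, with a log2 ratio of 0.98 (0.67 to 1.30). Atp6v1g3 was at 8 and 64 UMIs (2.34, 1.35 to 3.69), Atp6v0a4 at 21 and 82 (1.35, 0.67 to 2.15) and Car2 at 68 and 160 (0.64, 0.23 to 1.08), while Atp6v1b1 was at 10 and 12. Slc26a4 and Foxi1 had 2 and 3 JPI-289 UMIs there and 0 in the control.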
